A study of Mus musculus with 2 samples.

Results

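The 54 genes described here act in DNA replication (29 genes) or in mitosis (25 genes). They were chosen by name from the 27674 named genes or transcripts of an Agilent whole mouse genome array, and an older symbol of the same gene counted. The array's older symbols were Cdc2a for Cdk1, Kntc2 for Ndc80 and 4833427B12Rik for Gins2. The genes had 84 probes on 102 spots. All 54 had at least 1 probe well above background on both arrays, the condition for a value, and 77 of the 84 probes met it. The 7 probes that did not were 1 each of Cdca8, Cdk1, Cenpa, Espl1, Mcm4, Pole and Rrm1.

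The study measured expression in M/E cells, which are mouse bone marrow cells immortalised with the MLL/ENL fusion oncogene, and asked what an active Mef2c does in cells that have none. Both groups had the genotype Mef2c del/- and therefore no functional Mef2c of their own. The control culture carried the empty retroviral vector MYs-iPAC, and the other carried MYs-pMef2cASR, which encodes a constitutively active Mef2c whose histone deacetylase binding is mutated (MEF2C-ASR below). Both were selected with puromycin and grown in RPMI with 10% FCS, IL3, GM-CSF and IL6 (each at 10 ng/ml) and SCF (100 ng/ml). Cells were collected 6, 24 and 48 h after seeding in fresh medium, and the 3 RNAs of a culture were pooled onto 1 array. A pool of harvests hides any course over time, and a single culture per group has no replicate. So no test was possible, no p-value is given, and "higher" and "lower" describe these 2 arrays.

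Cells decide on division late in G1, when cyclin E with CDK2 helps to inactivate RB proteins and frees E2F factors, which switch on the genes of DNA synthesis. In S phase, licensed origins fire through the MCM helicase, and polymerases, the PCNA clamp and enzymes of nucleotide synthesis copy the genome. Genes of mitosis are switched on later, in G2, by B-MYB, the MuvB complex and FOXM1, largely through an element called CHR. Both sets are therefore high in growing progenitors and fall when myeloid cells leave the cycle to mature.

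RefSeq promoters were available for 44 of the 54 genes (24 of replication, 20 of mitosis), each a window from 250 bases before to 50 bases after the annotated start in the build GRCm38.p6. Those of Ccna2, Aurkb, Mcm4, Ccne2, Pole, Gins1, Gins2, Tpx2, Kif20a and Foxm1 were not used here. Those of 6 genes are shown, since they carry the elements counted below: Mcm5 and Mcm6, of the same helicase ring, the former lower and the latter near 0, Cdc25a, which was among the lowest genes, and the mitotic genes Cdk1, Ccnb2 and Cdc20. Each line holds the 250 bases before the start, 5′ to 3′ on the gene's strand. Capitals mark an E2F-type element (TTTCGCGC or TTTGGCGC), a CHR (TTTGAA or TTCGAA) or a CCAAT box (CCAAT), each on either strand. The reverse strand is seen as GCGCGAAA or GCGCCAAA, TTCAAA and ATTGG, and 2 facing E2F-type elements that overlap appear as 1 run. The positions are chr8:75109259-75109508 (plus strand) for Mcm5, chr1:128359706-128359955 (minus) for Mcm6, chr9:109875329-109875578 (plus) for Cdc25a, chr10:69352913-69353162 (minus) for Cdk1, chr9:70421555-70421804 (minus) for Ccnb2 and chr4:118437344-118437593 (minus) for Cdc20.
Mcm5: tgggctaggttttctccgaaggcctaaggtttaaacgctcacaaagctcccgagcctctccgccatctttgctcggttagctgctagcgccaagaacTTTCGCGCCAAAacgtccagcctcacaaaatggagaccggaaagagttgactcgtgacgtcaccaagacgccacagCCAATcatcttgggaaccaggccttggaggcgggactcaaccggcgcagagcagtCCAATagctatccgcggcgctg
Mcm6: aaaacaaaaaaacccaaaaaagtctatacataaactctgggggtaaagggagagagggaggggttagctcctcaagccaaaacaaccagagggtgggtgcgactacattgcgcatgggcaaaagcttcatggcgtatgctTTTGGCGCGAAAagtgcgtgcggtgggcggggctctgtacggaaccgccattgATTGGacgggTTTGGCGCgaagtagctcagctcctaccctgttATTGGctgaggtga
Cdc25a: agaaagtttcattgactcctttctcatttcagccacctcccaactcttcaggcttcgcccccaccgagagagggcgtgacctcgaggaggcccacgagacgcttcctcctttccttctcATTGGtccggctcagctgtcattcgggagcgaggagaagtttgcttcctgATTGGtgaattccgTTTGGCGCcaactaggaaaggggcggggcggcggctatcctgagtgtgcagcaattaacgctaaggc
Cdk1: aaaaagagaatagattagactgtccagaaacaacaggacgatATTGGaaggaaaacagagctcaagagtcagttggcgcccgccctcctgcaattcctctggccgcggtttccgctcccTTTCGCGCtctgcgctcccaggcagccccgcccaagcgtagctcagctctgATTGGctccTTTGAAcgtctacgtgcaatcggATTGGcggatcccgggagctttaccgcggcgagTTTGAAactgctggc
Ccnb2: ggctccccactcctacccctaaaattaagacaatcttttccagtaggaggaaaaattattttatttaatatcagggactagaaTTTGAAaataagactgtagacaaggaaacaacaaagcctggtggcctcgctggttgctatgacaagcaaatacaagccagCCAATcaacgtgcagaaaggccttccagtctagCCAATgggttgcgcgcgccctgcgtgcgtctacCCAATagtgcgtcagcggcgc
Cdc20: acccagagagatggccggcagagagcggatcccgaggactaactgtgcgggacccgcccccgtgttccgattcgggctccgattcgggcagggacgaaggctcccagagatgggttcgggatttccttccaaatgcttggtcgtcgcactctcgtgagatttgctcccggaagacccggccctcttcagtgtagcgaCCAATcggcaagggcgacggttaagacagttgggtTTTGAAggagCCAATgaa

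In Mcm5 and Mcm6 a pair of facing E2F-type elements forms a near palindrome, and Mcm6 has one more copy. Cdc25a has 1 copy between its CCAAT boxes and the start. Cdk1 has an E2F-type element farther up and 2 CHR elements, the nearer of them 15 to 10 bases before the start. Ccnb2 and Cdc20 have CHR and CCAAT letters and no E2F-type letters. A match of letters describes the sequence and is neither a bound site nor a cause of any difference.

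The letters were spread unevenly over both classes, a description for which no test was run. E2F-type letters lay in the windows of 11 of the 24 replication genes (45.8%) and 1 of the 20 mitosis genes (5.0%, Cdk1), against 1.21% of 17491 protein-coding genes. CHR letters lay in 5 replication genes (20.8%) and 16 mitosis genes (80.0%), against 20.2%. CCAAT boxes lay in 14 replication genes (58.3%) and 18 mitosis genes (90.0%), against 42.3%. Counted by promoter, the shares over all 32851 windows were 0.813%, 19.2% and 37.4%. A gene with several promoters had several chances of a match, and 5 of the 44 genes had more than 1. In the lists of other replication and other mitosis genes described further on, E2F-type letters lay in 4 of 41 (9.76%) and 4 of 59 genes (6.78%), so the gap between the classes was smaller there. CHR letters lay in 8 of 41 (19.5%) and 40 of 59 (67.8%). CCAAT boxes lay in 23 of 41 (56.1%) and 39 of 59 (66.1%), also a smaller gap than among the 44 genes. Among the 44 genes, both a CHR and a CCAAT box were found in 15 mitosis genes and 4 replication genes.

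**Figure D1:**
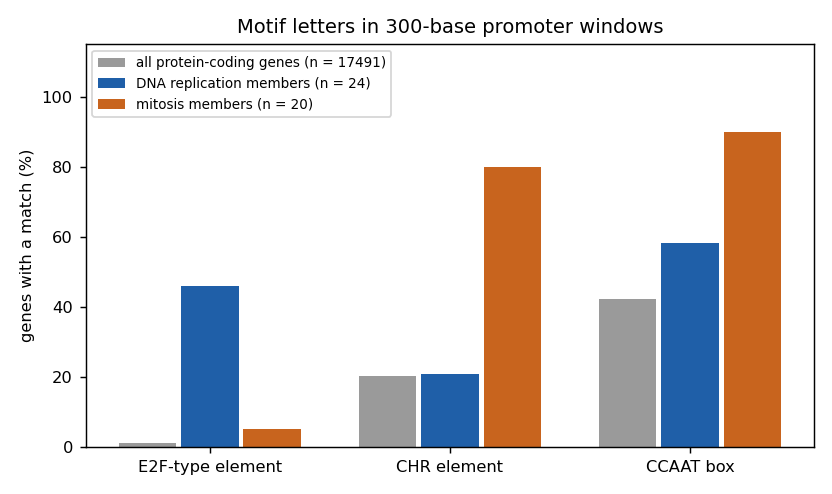
Share of genes (%) with a match to each kind of element in a promoter window of 300 bases, for 17491 protein-coding genes, 24 replication genes and 20 mitosis genes. E2F-type letters were most frequent in the replication genes (45.8%), and CHR (80.0%) and CCAAT letters (90.0%) in the mitosis genes.

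Expression was read as processed signal, in the scanner's arbitrary linear units with background subtracted, and signals below are as deposited. Differences are log2 values, MEF2C-ASR minus control, after each array was scaled to its 75th percentile, which was 1272 in the control and 1240 with MEF2C-ASR. The probes printed 10 times gave the error of spotting: a difference from 1 spot per array had a standard deviation of 0.15 over 154 such probes and 0.06 over the 90 with a signal of 500 or more. This error leaves out variation between cultures, pools and labelling. Of the 2 Mef2c probes, one read 795 in the control and 1969 with MEF2C-ASR, 2.54-fold higher after scaling. It was well above background in the control too, although the cells have no functional Mef2c, and the labels do not say whether it lies in the deleted part. The other probe, at 7.86 and 7.76, did not stand well above background, and with it kept the difference of Mef2c was 0.68 in place of 1.34. The reference gene Hprt differed by 0.02. Array slide and scan were the same for both.

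Replication genes were slightly lower with MEF2C-ASR and mitosis genes were close to the level of all genes. The median difference was -0.22 for the 29 replication genes and -0.06 for the 25 mitosis genes, beside -0.03 for the 16577 measured genes, whose SD was 0.42. The replication median lay 0.16 below the mitosis median, and 26 of the 29 replication genes lay below the mitosis median. The sizes were small: no gene of either class was 2-fold apart, a size reached upward by 1.74% and downward by 1.91% of all measured genes. E2f2 alone was at least 1.5-fold higher (background 4.46%) and Ccne1 alone at least 1.5-fold lower (background 5.03%). A fold of 1.2, chosen after the values were seen, was passed downward by 11 replication genes and 2 mitosis genes (background 17%) and upward by E2f2 alone (background 14.1%). With spike-in scaling, described below, 22 and 4 genes passed it downward, beside 34.9% of all genes. With fewer cells in S phase or less of each RNA per cell the array would read the same, and these cannot be told apart.

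By sign, 27 replication genes were below 0 and 2 above (E2f2 and Mcm6). Of the mitosis genes 16 were below 0, 6 above and 3 had probes on both sides (Cenpe, Kif11 and Top2a). Of all measured genes 49.8% were below 0 and 39.5% above. The zero depends on the scaling: with the arrays scaled on their spiked-in RNAs the median of all genes moved by -0.15, and 2 of the 54 genes were above 0 and 48 below, in place of 8 and 43. Of all genes 20.7% were then above 0 and 71.1% below. All genes at least 2-fold apart then split as 214 higher and 434 lower, in place of 289 and 317. Relative to the median of all genes the class medians stayed at -0.19 and -0.03 with either scaling.

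**Figure D2:**
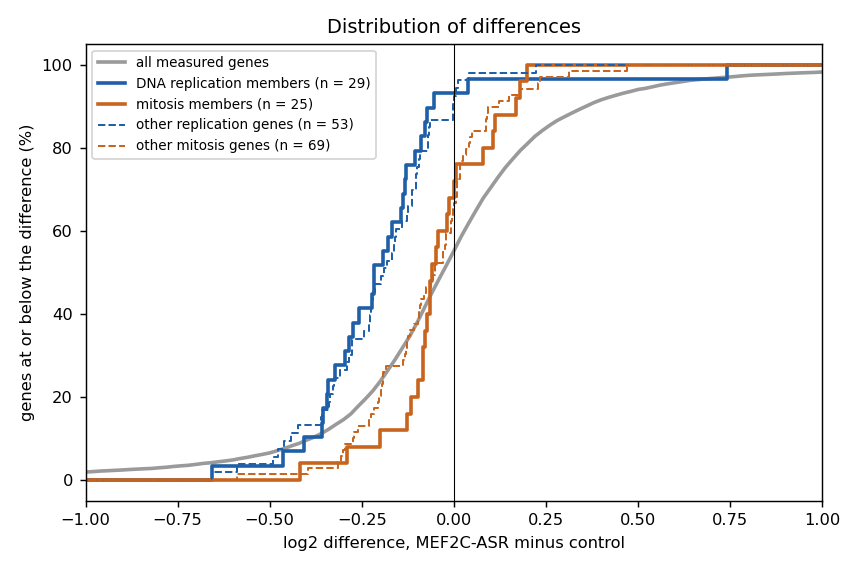
Cumulative share of genes (%) at or below each log2 difference, MEF2C-ASR minus control, for all measured genes, the 29 replication and 25 mitosis genes, and for 53 other replication and 69 other mitosis genes (dashed). The replication curves lie to the left, with medians of -0.22 and -0.19, and the mitosis curves cross the middle at -0.06 and -0.05.

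The regulators of G1/S held both ends of the range. Ccne1, encoding cyclin E1, the partner of CDK2 at S phase entry, was the lowest of the 54 genes. Its probes read 14397 and 826 in the control and 8990 and 506 with MEF2C-ASR, lower on the latter by both, and the mean difference was -0.66 (1.58-fold lower). Both probes have the same position in the array files, chromosome 7, 34990690 to 34990713, so they cannot be taken as independent. This stretch spans 24 bases, fewer than the usual probe length of 60, so the overlap of the whole probes is not known. The build of probe positions was not given in the sources used here. Its paralogue Ccne2 (cyclin E2) was at -0.30. Cdc25a, encoding the phosphatase that removes inhibitory phosphates from CDK2, was at -0.41. Its probes read 1386 and 999 in the control and 990 and 758 with MEF2C-ASR.

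E2f2, encoding an activating E2F factor, was higher with MEF2C-ASR, while 27 of the replication genes were below 0. Its probe, on chromosome 4 at 135573084 to 135573143, read 3515 in the control and 5728 with MEF2C-ASR, a difference of 0.74 (1.67-fold higher). This rests on 1 probe with 1 spot per array, and 97.0% of measured genes lay below it. The difference was 0.59 to 0.75 over the other ways of processing. The other activating factor in the set, E2f1, was lower (-0.34, 1.27-fold), by -0.38 and -0.30 in its probes. E2f1 and E2f2 therefore differed in direction between the same 2 arrays.

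E2f1 has a probe printed 10 times on each array. Over all 10 spots its signal ran from 1379 through a median of 1420 to 1546 in the control, and from 1038 through 1066 to 1108 with MEF2C-ASR. The spots of the arrays did not overlap, which says nothing of a second culture. After leaving out a spot flagged as an outlier, 9 spots gave 1439 ± 53.7 (SD, n = 9 spots of 1 array) and 1075 ± 24.9. Chek1, encoding the kinase that restrains CDK activity when forks stall, and Uhrf1, encoding the factor that brings DNA methylation to newly made DNA, were both at -0.36. The probes of Chek1 were at -0.37 and -0.35 and those of Uhrf1 at -0.37 and -0.34. Of the 7 genes of this role, 6 were at least 1.2-fold lower (background 17.0%) and the median was -0.36.

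**Figure D3:**
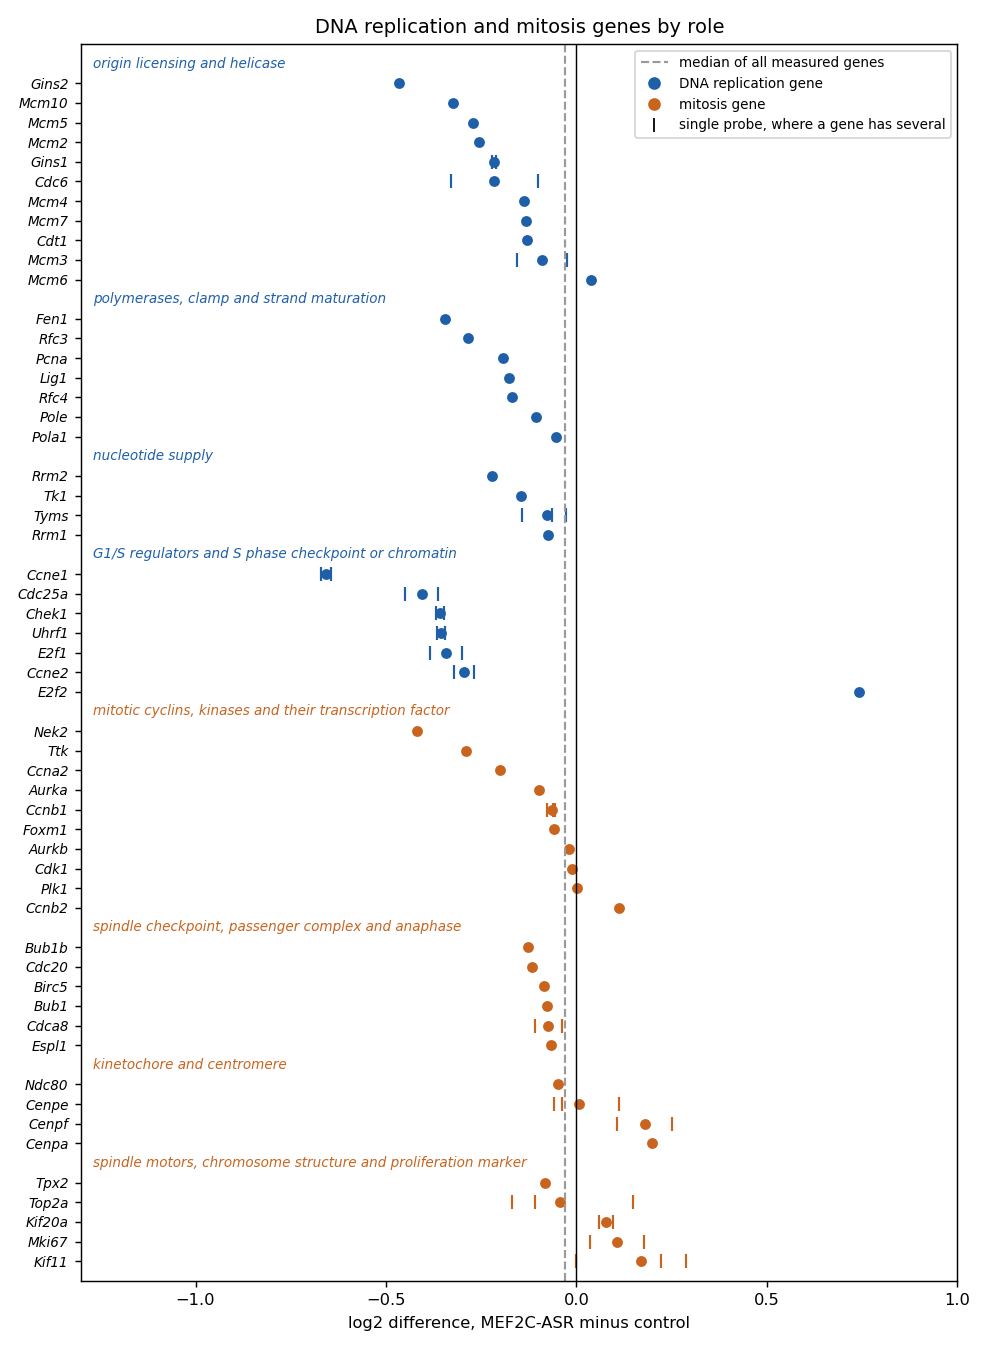
Log2 difference, MEF2C-ASR minus control, of each of the 54 genes by role, replication roles above and mitosis roles below; circles are gene means, ticks are single probes of genes with several, and the dashed line is the median of all measured genes (-0.03). Most replication genes lie left of the dashed line, with E2f2 alone far to the right at 0.74.

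The genes of origin licensing and of the helicase were lower with 1 exception, beside 49.8% of all genes below 0. The median was -0.22 over the 11 genes. Gins2, a subunit of the GINS complex that completes the active helicase, was lowest at -0.46 (1.38-fold). Its probe read 6189 in the control and 4373 with MEF2C-ASR. Mcm10, needed for the helicase to start unwinding, was at -0.32, from 23631 to 18413. With Mcm5 they were the members of the group that passed 1.2-fold downward (background 17.0%).

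The hexamer MCM2 to MCM7 is the motor of the helicase, and its 6 genes ranged from -0.27 to 0.04. Mcm5 was at -0.27, Mcm2 at -0.26, Mcm4 at -0.14, Mcm7 at -0.13 and Mcm3 at -0.09. Mcm6 read 93153 and 93243, a difference of 0.04, within the spotting error of 0, and was at -0.11 with spike-in scaling. The loaders of the hexamer, Cdc6 and Cdt1, were at -0.22 and -0.13, and the GINS subunit Gins1 was at -0.22. The probes of Cdc6 differed in size, -0.33 and -0.10, and those of Gins1 both lay at -0.22 and -0.21.

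All 7 genes of the replication fork's synthesis machinery were below 0 (49.8% of all genes), with a median of -0.18. Fen1, the flap nuclease that trims Okazaki fragments, was lowest at -0.34, with signals of 17138 in the control and 13167 with MEF2C-ASR. Rfc3, a subunit of the loader that places PCNA on DNA, was at -0.29, from 2618 to 2095. Its partner Rfc4 was at -0.17, Lig1, which seals the fragments, at -0.18, and the catalytic subunits of polymerases epsilon (Pole) and alpha (Pola1) at -0.11 and -0.05.

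Pcna, the sliding clamp and a common marker of proliferation, also has a probe printed 10 times. Its signal ran from 73572 through a median of 77535 to 80217 in the control, and from 62344 through 66478 to 70537 with MEF2C-ASR. As for E2f1, no spot of one array reached the range of the other. The 8 spots used gave 77767 ± 1703 (SD, n = 8 spots of 1 array) and 66320 ± 1524, a scaled difference of -0.19.

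**Figure D4:**
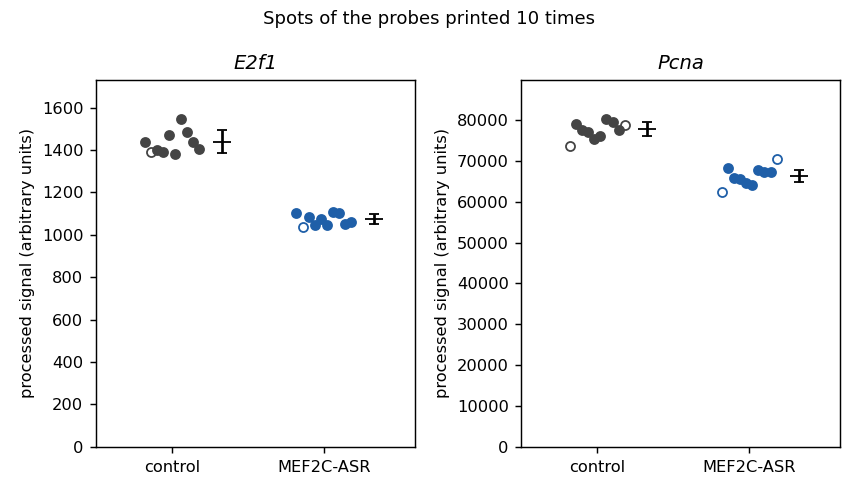
Processed signal (arbitrary units, axis from 0) of each spot of the E2f1 and Pcna probes that are printed 10 times per array; open circles are spots left out as outliers on either array, and bars are mean ± SD over the spots used. Spots of 1 array share 1 RNA pool, so the bars show spotting error only; the arrays do not overlap for either gene.

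The 4 genes of nucleotide supply were all below 0 (49.8% of all genes), by less. Rrm2, the small subunit of ribonucleotide reductase whose amount peaks in S phase, was at -0.22, with signals of 9761 and 8165. Tk1, thymidine kinase of the salvage pathway, was at -0.14, with 9199 and 8118. Tyms, which makes thymidylate, was at -0.08 over 3 probes (-0.14, -0.06 and -0.03). Rrm1, the large subunit of the reductase, was at -0.07.

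Among the mitotic cyclins and kinases, 8 of 10 genes were below 0 (49.8% of all genes). The median was -0.06, beside -0.03 over all genes. Nek2, a kinase of centrosome separation, was lowest of all mitosis genes at -0.42 (1.34-fold), from 3104 in the control to 2265 with MEF2C-ASR. Ttk, the kinase MPS1 that starts the spindle checkpoint, was at -0.29, from 624 to 498. Ccna2, whose cyclin A2 acts in S phase as well as at mitotic entry, was at -0.20, from 21390 to 18154. These were the only mitosis genes as low as the replication genes' upper quartile or lower, with Ttk and Nek2 below their median.

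The core of the mitotic switch differed little between the arrays. Cdk1, the kinase itself, was at -0.01, and its cyclins were at -0.06 (Ccnb1, 3 probes) and 0.11 (Ccnb2, signals of 27581 and 29089). Plk1 read 22843 and 22286, a difference of 0.00. Aurka, the centrosomal Aurora kinase, was at -0.10, Aurkb, the Aurora kinase of the chromosomal passenger complex, at -0.02, and Foxm1, the factor that drives these genes, at -0.06. With spike-in scaling Ccnb2 was at -0.03 and Plk1 at -0.15, so their side of 0 is set by the scaling.

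The 6 genes of the spindle checkpoint, passenger complex and anaphase lay in a narrow band. Bub1b (BUBR1) and Cdc20, the checkpoint protein and the activator of the anaphase-promoting complex it holds back, were at -0.13 and -0.12. Their signals were 7191 and 38223 in the control and 6425 and 34398 with MEF2C-ASR. Birc5 (survivin) and Cdca8 (borealin), of the passenger complex, were at -0.08 and -0.07. The checkpoint kinase Bub1 was at -0.08 and Espl1, the separase that cuts cohesin, at -0.07. The arrays differed by less than 1.2-fold in each of them.

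The 4 kinetochore genes had a median of 0.09, and 0.03 with the brightest probe of each. Of them, 2 were above 0 (39.5% of all genes), 1 below (49.8%) and 1 had probes on both sides. With spike-in scaling their median was -0.05, with Cenpa at 0.05, Cenpf at 0.03, Cenpe at -0.14 and Ndc80 at -0.20. Cenpa, the histone H3 variant that marks centromeres, was the highest mitosis gene at 0.20, from 7714 in the control to 8631 with MEF2C-ASR. Cenpf was at 0.18, with a bright probe at 0.11 (5612 and 5895) and a dim one at 0.25 (55.5 and 64.4). Cenpe, the kinetochore motor CENP-E, was at 0.01 with probes from -0.06 to 0.11, and Ndc80, of the complex that holds microtubules, was at -0.05 (1642 and 1548).

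Spindle motors and chromosome genes were also near 0, with a median of 0.08 over 5 genes (-0.001 with the brightest probe of each). Kif11, the motor that separates spindle poles, was at 0.17, but only by its dim probes (157 and 187; 74.0 and 84.2), and its brightest probe read 1658 and 1616, a difference of 0.00. Mki67, encoding the marker Ki-67, was at 0.11, with probes of 34443 and 37971 and of 8064 and 8055. Kif20a, a motor of cytokinesis, was at 0.08. Top2a, topoisomerase II alpha, was at -0.04 with probes from -0.17 to 0.15, and Tpx2, an activator of Aurora A, was at -0.08 (9127 and 8407). With spike-in scaling the median of the group was -0.07, and Mki67 and Kif20a were at -0.04 and -0.07.

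Other genes of the same processes gave the same picture of medians. Of 53 other replication genes, all measured, 46 were below 0 and 3 above, beside 49.8% and 39.5% of all genes. The median was -0.19, and 18 genes were at least 1.2-fold lower (34.0%, background 17.0%). Their largest differences were those of Ung, the glycosylase that removes uracil from DNA, at -0.66 (15599 and 9657), and Orc1, a subunit of the origin recognition complex, at -0.59 (1212 and 786). Of 70 other mitosis genes 69 were measured. Of these, 38 were below 0 (55.1%), 18 above (26.1%) and 13 had probes on both sides, and the median was -0.05. At least 1.2-fold lower were 7 (10.1%, background 17.0%) and 1.2-fold higher 2 (2.90%, background 14.1%). Lmnb1, encoding lamin B1 of the nuclear lamina, was at -0.59 (21215 and 13764), and Nusap1, a spindle-associated protein, at 0.47, though at 0.16 in its brightest probe.

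Of the 18 further E2F, RB and DREAM genes, 10 were below 0 (55.6%), 7 above (38.9%) and 1 had probes on both sides. Over all genes the shares below and above 0 were 49.8% and 39.5%. The median of the 18 genes was -0.16 (-0.04 with the brightest probe of each). E2f5, a repressive E2F, was at -0.77, but -0.23 in its brightest probe (367 and 304). E2f7, an atypical E2F that represses S phase genes, was at -0.47 (3230 and 2292 in its brightest probe). None of these lists held a gene that was 2-fold apart.

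The differences were also set beside the promoter letters. The 11 replication genes with E2F-type letters had a median of -0.13 (-0.41 to 0.74, 9 below 0). The 13 replication genes without had -0.22, all of them below 0. Of all measured genes 49.8% were below 0. Only TTTCGCGC and TTTGGCGC were counted, so a gene without these letters may still hold another form of the element. Cdc25a at -0.41 and Mcm6 at 0.04 both have such letters, as does E2f2, 40 to 47 bases after one of its 2 annotated starts. Among the mitosis genes the 16 with CHR letters had a median of -0.05 and the 4 without -0.07.

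The label of the cells was checked on marker genes, with summed signals given for the control first. Of 10 genes of immature myeloid progenitors, Kit and Hoxa9 among them, all were above background on both arrays, with summed signals of 389009 and 482368. Their median difference was 0.35, with 6 of the 10 at least 1.2-fold higher (background 14.1%) and none lower (background 17.0%). Of the sums, Ctsg alone made 207063 and 204890, and Mpo 68289 and 143027. Maturation markers were also higher with MEF2C-ASR, by more. All 10 of the mature granulocyte list were above background on both arrays, their summed signal was 366521 and 534744, and their median difference was 1.24. Of these sums S100a9 alone made 258469 and 302976. Of the monocyte and macrophage list 9 of 10 were above background on both (not Mrc1), with 103375 and 179288 and a median of 1.62. Lyz2 alone made 95522 and 157599 of these sums. The part of these cell types in the lower replication genes was not tested. Summed signals of the B lineage (349 and 424), T and NK lineage (1404 and 1120) and stromal or endothelial lists (825 and 720) were made of 2 and then 5 of 6, 3 and then 5 of 6, and 4 and then 6 of 7 genes above background. Ebf1, Ncr1 and Cdh5 were not well above background on either array. The lowest signal well above background was 38.3 in the control and 19.98 with MEF2C-ASR. Dimmer genes could therefore be counted on the latter array, so a larger count there need not mean higher expression. Median signals, control first, were 34.4 and 36.2 (B lineage), 95.8 and 93.98 (T and NK lineage) and 45.2 and 25.01 (stromal or endothelial).

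**Figure D5:**
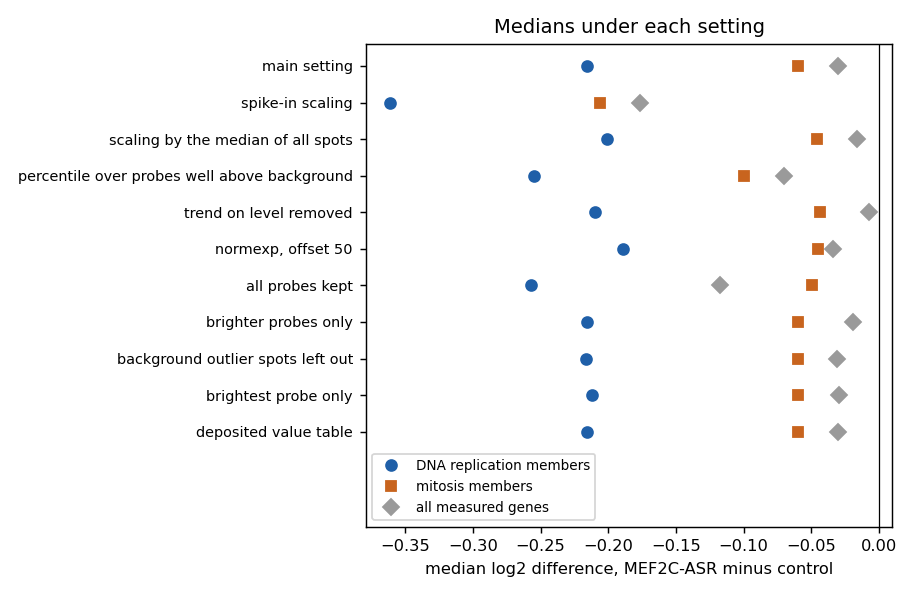
Median log2 difference, MEF2C-ASR minus control, of the 29 replication genes, the 25 mitosis genes and all measured genes under the main setting and each of 10 other ways of processing. The replication median ran from -0.36 to -0.19 and lay below the mitosis median, which ran from -0.21 to -0.04, in each of them. Spike-in, median and percentile scaling move all genes alike, and the value table equals the processed signals, so these could not change the gap.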

How the data were processed

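Total RNA pooled per culture was amplified, labelled with Cy3 and hybridised to 1 Agilent array per group. The deposited values are spot intensities on a linear scale, made by the authors with Feature Extraction 9.5.1.1, per the file headers. Flags for outliers, saturation and a signal well above background come from the same software, per the file headers. The deposited value table equals the processed signals. No build was named for the probe positions in the sources used here.

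From the log2 processed signals, the array's 75th percentile of 43379 non-control spots was subtracted. Outlier spots (202 and 201) were left out, and no spot was saturated. Spots well above background made up 60.1% (control) and 67.5% (MEF2C-ASR) of the total. Spots of a probe were averaged, and a gene's value is the mean of its probes well above background on both arrays. Counts need all those probes on the same side. The alternatives were other scalings, normexp background correction (limma 3.58.1, R 4.3.3, offset 50, with the array's median local background for spots flagged as background outliers), dim-probe filters, the brightest probe, spots flagged as background outliers left out, and the value table. Other steps ran in Python 3.11.15 and were tested on simulated data.

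The genes, lists and rules were chosen with earlier results of these data known. All 54 genes are named by role. Signals are given for up to 2 genes with the largest difference in each direction per role and for genes 1.5-fold apart, and others were added for their role after values were seen. In each related list up to 3 genes at least 2-fold apart in each direction are named, or else the 2 with the largest difference. The lists of related genes, the promoter elements and the promoters shown were also chosen by hand. One further marker list is not reported here.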

Additional observations from a re-analysis of the deposited data

How the results depend on the processing

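With 1 array per group no array could be left out, and precision is limited by the number of arrays. No paired analysis was possible because each group has 1 array. The replication median ran from -0.36 to -0.19 and the mitosis median from -0.21 to -0.04 over the 10 alternatives. The gap between them ran from 0.14 to 0.21. Spike-in, median and percentile scaling and the value table could not change this gap, since they move all genes alike or not at all. E2f2 and Ccne1 kept their direction in all 10 alternatives. With spike-in scaling 2 of the 54 genes were at least 1.5-fold lower, beside 8.24% of all genes, and 2 lay above 0, beside 20.7%. At least 1.2-fold lower were 26, beside 34.9% of all genes, 22 of them replication and 4 mitosis genes. The percentile over probes well above background left 5 of the 54 genes above 0, beside 33.2% of all genes. With dim probes kept, 2 of the 54 were at least 1.5-fold lower, beside 25.3% of all genes. Between 48 and 54 of the genes kept their sign, the fewest with spike-in scaling. Leaving out spots flagged as background outliers took away the value of Mcm4. The counts over all genes that follow are out of 16577 genes, but 12578 with brighter probes and 27624 with dim probes kept. Of all genes, 2-fold lower were 317, but 434 with spike-in scaling, 120 with normexp, 109 with brighter probes and 981 with dim probes kept; 2-fold higher were 289, but 164 with normexp and 789 with dim probes kept. At least 1.5-fold lower were 834 of all genes, but 1366 with spike-in scaling, 415 with normexp, 350 with brighter probes and 6979 with dim probes kept, and 1.5-fold higher were 739, but 1844 with dim probes kept. At least 1.2-fold lower were 2824, but 5782 with spike-in scaling, 1762 with brighter probes and 9776 with dim probes kept, and 1.2-fold higher were 2334, but 1307 with spike-in scaling and 4233 with dim probes kept.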

Other observations

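Subunits of the same replication complex differed in size, a reading made after the values were seen. In the complex of polymerase alpha and primase, which lays the first primers, Prim1 was at -0.49, Prim2 at -0.48 and Pola2 at -0.44, while the catalytic subunit Pola1 was at -0.05. Prim2 was at -0.20 in its brightest probe. In the origin recognition complex Orc1 was at -0.59, Orc6 at -0.34, Orc2 at -0.23, Orc5 at -0.22, Orc3 at 0.00 and Orc4 at 0.04. In the GINS complex Gins2 was at -0.46, Gins1 at -0.22, Gins3 at -0.16 and Gins4 at 0.01. In the single-strand binding protein RPA the values were -0.36 (Rpa2), -0.23 (Rpa1) and 0.22 (Rpa3). Each of these values is from 1 array per group, and which of them would hold in a second culture was not tested.

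In the E2F family E2f2 (0.74) was above 0 and the others were below. The activating E2f1 and E2f3 were at -0.34 and -0.11. The repressive members were at -0.03 (E2f4), -0.77 (E2f5, -0.23 in its brightest probe), -0.29 (E2f6), -0.47 (E2f7) and -0.20 (E2f8). The dimer partners were at -0.27 (Tfdp1) and 0.37 (Tfdp2), and the pocket proteins at -0.39 (Rbl1), 0.02 (Rb1) and 0.20 (Rbl2).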
